A study of Mus musculus with 23 samples.

Results

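The uninjured head of the pancreas was measured by RNA sequencing in 8 of the 23 mice of a study of recovery from caerulein pancreatitis. The 8 mice, mouse 1 to mouse 8, are the samples labelled as baseline, and all 18512 gene symbols in their count files were ranked by level and by spread between mice. They were C57BL/6 mice from Charles River, 6 to 8 weeks old, 4 labelled female (mice 1 to 4) and 4 labelled male (mice 5 to 8), and they are described as non-injured. Whether they received a vehicle injection was not given in the sources used here, and the tissue was a piece next to the duodenum. The other mice, which enter only where the sexes are followed over time, had received 8 hourly intraperitoneal injections of caerulein at 50 µg/kg on each of 2 days and were killed at day 7 (4 females and 4 males) or day 14 (3 females and 4 males). A library holds the RNA of 1 piece of tissue from 1 mouse, depleted of ribosomal RNA, and its value for a gene is a count of read fragments.

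The exocrine pancreas is built mainly of acinar cells, which make digestive enzymes and zymogens, pack them into zymogen granules and release them into the ducts that lead to the duodenum. Islets of endocrine cells, ducts, vessels, fibroblasts, fat and immune cells make up the remainder of the tissue. In bulk tissue, more cells of a type and more RNA per cell of that type cannot be told apart. Levels are given as CPM, a gene's share of the counts of its library, in which 10000 CPM are 1% of the library. CPM depends on transcript length. Where genes are compared by level, CPM was divided by the exon length in kilobases. Spread is the standard deviation of log2 CPM over the 8 mice, after TMM scaling (a scaling of each library that rests on the majority of genes) and with a prior count of 2.

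Total counts ranged from 7059890 to 8868360 per mouse, and 14641 to 15914 symbols had at least 1 count (median 15091). No difference between the sexes passed for total count, symbols detected or the share taken by the 20 most abundant symbols (exact two-sided permutation tests, p = 0.514, 0.486 and 0.0857, adjusted p = 0.514, 0.514 and 0.257; the smallest p that 4 against 4 mice allow is 0.0286). Across the 11645 genes with a mean of at least 1 CPM, pairs of mice correlated with r between 0.926 and 0.980 (median 0.969, 28 pairs). Mouse 5 had the lowest mean r with the other mice, at 0.940, and the other 7 had mean r between 0.962 and 0.970. TMM scaling factors ran from 0.899 in mouse 6 to 1.17 in mouse 4.

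The library of mouse 4 went against its label at *Xist*. This gene, a non-coding RNA that coats the inactive X chromosome, had 3861, 4038 and 4353 counts in females 1, 2 and 3 but 2 counts in mouse 4, which is labelled female, and 1 to 3 counts in the 4 males. The 4 Y-linked genes *Ddx3y*, *Uty*, *Kdm5d* and *Eif2s3y* had 0 counts in mouse 4, as in the other 3 females. *Kdm6a*, an X-linked gene known to escape X inactivation, stood at 27.6 CPM in mouse 4, below females 1 to 3 (33.2 to 36.7 CPM) and above the males (22.3 to 24.5 CPM). After TMM scaling, in which mouse 4 had the highest factor, it stood at 23.5 CPM in mouse 4, within the males (22.4 to 25.8 CPM) and below females 1 to 3 (32.7 to 37.4 CPM). *Kdm5c*, *Eif2s3x* and *Ddx3x*, at 68.9, 19.7 and 244 CPM in mouse 4, likewise lay between the groups without TMM scaling and within the males with it (58.8, 16.8 and 208 CPM). The comparison of the sexes at baseline was therefore run with mouse 4 and without it.

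The fragments of the uninjured pancreas head came mostly from a few secreted products of acinar cells. The 20 most abundant symbols took 69.4% ± 1.48 (SD, n = 8) of the counts, between 66.4% and 71.2% in each mouse. From 9 to 11 symbols made up 50% of a library, 1295 to 2108 made up 90%, and 7605 to 8698 made up 99%. Digestive enzymes and zymogens (37 listed symbols) alone took 65.5% ± 2.20 (SD, n = 8), from 61.2% in mouse 4 to 68.2% in mouse 6. At the other end, 874 symbols had no count in any of the 8 mice.

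*Pnlip*, pancreatic triacylglycerol lipase (chromosome 19:58652498-58681788), was the symbol with the largest share, with a lowest value of 81585 CPM, a median of 84092 CPM and a highest value of 98554 CPM. *Cel*, the bile salt-dependent lipase, followed with 67154 ± 4083 CPM (SD, n = 8). Then came carboxypeptidase B (*Cpb1*, 64068 ± 6202 CPM), the elastases *Cela2a* (58970 ± 4907 CPM) and *Cela1* (54186 ± 4966 CPM), and carboxypeptidase A1 (*Cpa1*, 45574 ± 2521 CPM). All 8 mice kept *Pnlip* above every other symbol.

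Chymotrypsinogen B (*Ctrb1*) had 41792 ± 3928 CPM and the trypsinogens *Prss2*, *2210010C04Rik* and *Try4* had 37748 ± 5504, 37540 ± 3553 and 24735 ± 2181 CPM. Trypsinogens are the inactive precursors of trypsin, which activates the other zymogens in the gut. Other enzymes among the 20 were *Pnliprp1* (31695 ± 1432 CPM), *Ctrl*, *Cela3b*, ribonuclease 1 (*Rnase1*) and colipase (*Clps*). *Rn45s*, the precursor of ribosomal RNA, held rank 14 with 21690 ± 1855 CPM after depletion of ribosomal RNA. *Dmbt1*, a secreted scavenger receptor protein, the granule lectin *Zg16* and the lectin-like *Reg1* were also among the 20.

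**Figure D1:**
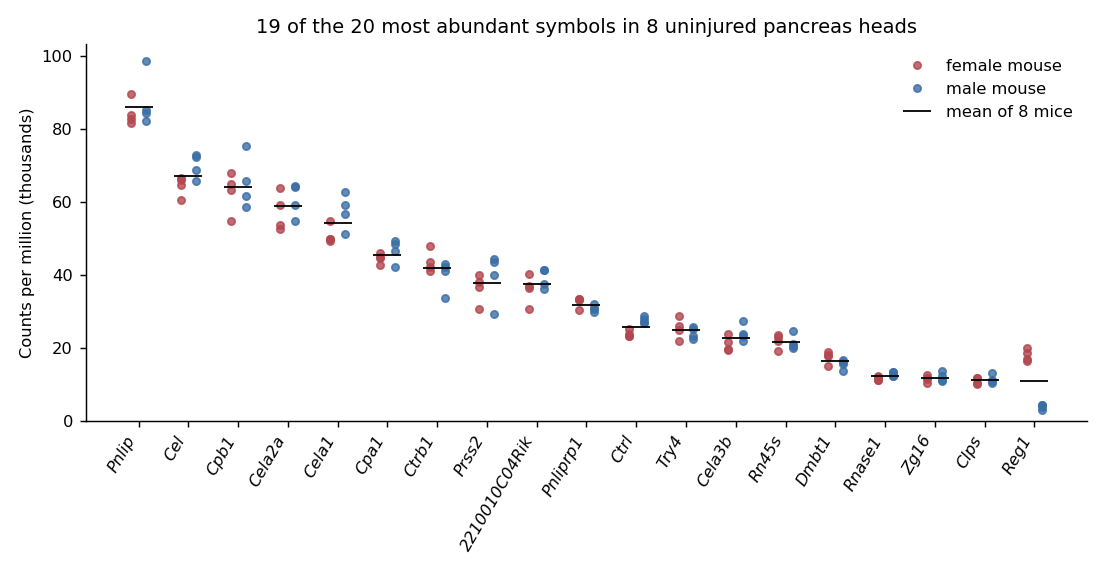
Of the 20 most abundant symbols, 19 in order of mean CPM (vertical axis, in units of 1000 CPM), 1 point per mouse, coloured by labelled sex, with a black bar at the mean of 8 mice. The points of each symbol lie close together except for *Reg1*, where the 4 females (16251 to 19992 CPM) stand above the 4 males (3052 to 4347 CPM).

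Division by exon length changed the order but few of the members. Of the 20 symbols, 19 had a length, and 17 were also among the 20 with the highest CPM per kilobase. *Ctrb1* led with 47599 CPM per kilobase, followed by *Prss2* with 46317, *Pnlip* with 39191, *Cela2a* with 34226 and *Cel* with 31917 CPM per kilobase. *Dmbt1*, whose exons cover 7057 bases, moved from rank 15 by CPM to rank 27 per kilobase. *Sycn* (syncollin, a zymogen granule membrane protein, 10906 CPM per kilobase), the microRNA symbol *Mir6236* (10559) and *Try5* (10282) were the 3 that entered.

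Outside these 20, the next in order per kilobase were *Rpph1*, the RNA of ribonuclease P, with 5143 CPM per kilobase, and *Klk1*, tissue kallikrein, with 4024 CPM per kilobase. After them came *Gp2*, the major glycoprotein of the granule membrane (3183), the trefoil peptide *Tff2* (3115), *Pnliprp2* (2862), the pancreas-specific disulfide isomerase *Pdia2* (1960) and the serpin *Serpini2* (1504). *Mir6236* had the highest CV of these 10 additions at 22.7%, from 908 to 1859 CPM between mice. Lengths are the union of annotated exons, so a gene with long unused exons is placed too low. Paralogs such as the trypsinogens and amylases share sequence, and only uniquely mapped fragments were counted, so their values are uncertain. *Amy2a2*, *Amy2a3* and *Amy2a4* had identical counts in all 8 mice, and 13 such sets of symbols were found at a mean of at least 1 CPM.

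The regulatory sequence just before the start of these genes is shown because acinar genes share a control element. The transcription factor complex PTF1, which contains *Ptf1a* and *Rbpjl* in adult acinar cells, is known to bind an E-box (CACCTG or CAGGTG) paired with a TC box (TTTCCC or GGGAAA). RefSeq promoter entries (GRCm38.p6) were found for 15 of the 20 symbols. In the 250 bases before the start, 9 of the 15 held the E-box letters, 7 the TC box letters and 4 both. Of 32851 promoter entries of the same length, 17.2% held the E-box, 21.9% the TC box and 3.61% both. The letters TATAAA lay within the last 50 bases before the start in 6 of the 15 and in 2.63% of all entries. Both strands were searched for the E-box and the TC box, and TATAAA was searched on the gene's strand. A match describes letters only. The 3 sequences below, from a lipase, an elastase and a trypsinogen, are among the 4 that held both, so they are not typical of the 15. *Pnlip*, *Pnliprp1* and *Rnase1* held neither the E-box nor the TC box letters. The sequences are written 5′ to 3′ on the gene's strand, with E-box, TC box and TATAAA letters in capitals. *Cel* is chr2:28563404-28563653 (minus strand), *Cela1* is chr15:100687921-100688170 (minus strand) and *Prss2* is chr6:41521526-41521775 (plus strand).
Cel: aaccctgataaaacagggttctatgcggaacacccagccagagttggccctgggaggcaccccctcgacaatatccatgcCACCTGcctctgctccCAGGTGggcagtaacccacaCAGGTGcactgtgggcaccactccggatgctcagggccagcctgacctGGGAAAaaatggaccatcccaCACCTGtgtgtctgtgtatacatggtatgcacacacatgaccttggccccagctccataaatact
Cela1: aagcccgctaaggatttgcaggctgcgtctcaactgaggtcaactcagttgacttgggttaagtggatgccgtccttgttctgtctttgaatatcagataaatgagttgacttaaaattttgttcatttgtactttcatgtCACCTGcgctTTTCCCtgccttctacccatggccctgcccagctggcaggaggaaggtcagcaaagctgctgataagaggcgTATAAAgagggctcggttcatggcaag
Prss2: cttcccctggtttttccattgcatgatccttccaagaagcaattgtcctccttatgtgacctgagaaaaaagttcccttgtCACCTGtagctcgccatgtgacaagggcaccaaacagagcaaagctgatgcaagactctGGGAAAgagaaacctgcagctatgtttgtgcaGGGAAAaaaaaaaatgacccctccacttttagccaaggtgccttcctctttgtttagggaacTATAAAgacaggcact

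The factors known to bind such elements were present at far lower levels. *Ptf1a* had 23.3 to 53.2 CPM (24.3 CPM per kilobase on average) and *Rbpjl* 157 to 188 CPM (29.3 CPM per kilobase). Of 12 acinar transcription factors, all 12 had a mean of at least 1 CPM. *Bhlha15* (Mist1, a regulator of secretory capacity) had 171 to 298 CPM and *Xbp1*, a regulator of the secretory pathway, 329 to 436 CPM. The whole list summed to 952 CPM at the median mouse (880 to 1157 CPM).

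Most genes differed little between uninjured mice. The median SD of log2 CPM was 0.22 over the 11645 genes with a mean of at least 1 CPM, with 0.10 at the 5th and 0.66 at the 95th percentile. Of the 7766 genes with a mean of at least 5 CPM, 6758 (87.0%) had a highest mouse below 2 times the lowest, and 89 had a highest mouse over 5 times the lowest or a mouse at 0. Counting error made up much of the spread of low genes. Between 1 and 10 CPM the median coefficient of variation (CV) on TMM-scaled counts was 22.6%, where counting alone gives 18%. Between 100 and 1000 CPM it was 8.74%, where counting alone gives 2.85%.

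An index of dispersion test against Poisson counting called 4053 of the 11645 genes (34.8%) as varying beyond counting error at an adjusted p of at most 0.05. The share grew with depth, from 24.5% at 1 to 10 CPM to 42.5% at 10 to 100 CPM and 95.1% at 100 to 1000 CPM, and all 39 genes above 1000 CPM were called. The test takes fragments as independent and asks about counting error alone, so its calls follow the level of a gene, and duplicate fragments were not modelled. Without mice 4 and 5 the count was 1831, and without mouse 5 alone it was 2702.

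The scale mattered for the enzymes. On the CPM scale the 20 most abundant symbols had a median CV of 8.76%, the lowest being 4.52% for *Pnliprp1* and the highest 69.7% for *Reg1*. Because these symbols fill most of each library, their CPM can vary little together. Against the majority of genes, by TMM, the 39 genes above 1000 CPM had a median CV of 13.5%, compared with 8.69% on the CPM scale. The trypsinogens *Prss3* (121 to 448 CPM) and *Gm5771* (28.2 to 164 CPM) were both highest in mouse 2.

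**Figure D2:**
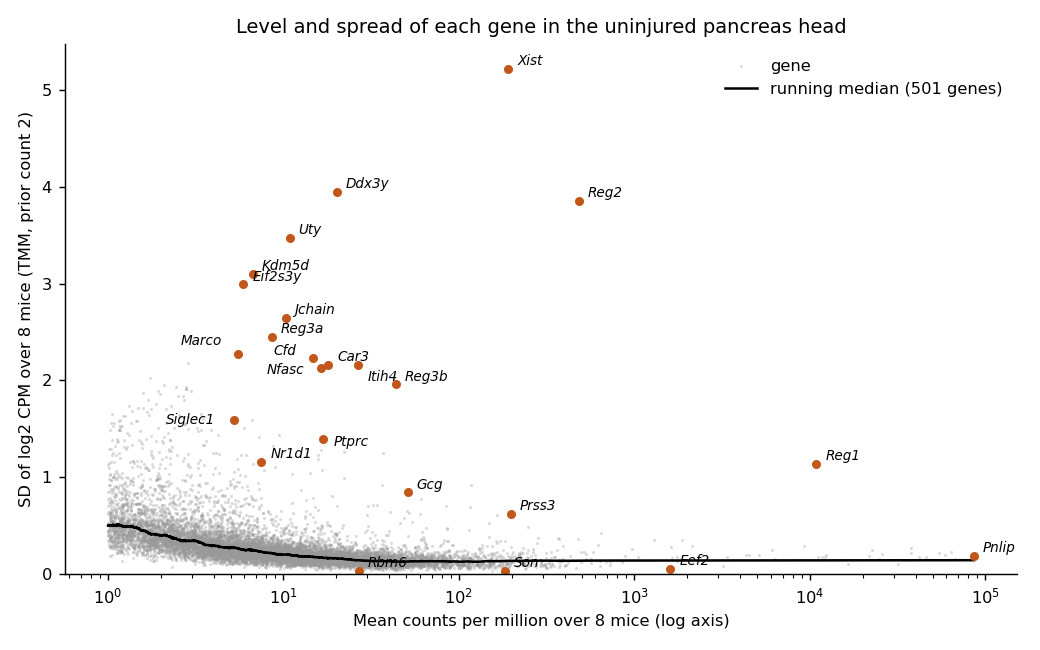
Each grey point is 1 of 11645 genes, placed by its mean CPM over 8 uninjured mice (horizontal log axis) and by the SD of its log2 CPM (vertical axis). The black line is a running median over neighbouring genes. *Xist*, 4 Y-linked genes and *Reg2* stand highest, and *Reg2* (mean 484 CPM) and *Reg1* (mean 10902 CPM) lie far above the line at high abundance.

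The 20 genes of highest spread among those with a mean of at least 5 CPM fell into 4 kinds. They were picked for this spread, so their values are descriptions. *Xist* (SD 5.22 on the log2 scale), *Ddx3y* (3.95), *Uty* (3.47), *Kdm5d* (3.10) and *Eif2s3y* (2.99) are sex-linked. *Reg2* (3.86), *Reg3a* (2.45), *Reg3b* (1.96), *Itih4* (2.16) and *Nfasc* (2.13) are autosomal and were high in females and low in males. *Cfd* (2.23) and *Car3* (2.16) are products of fat cells. *Jchain* (2.64), *Marco* (2.27), *Coro1a* (1.59), *Siglec1* (1.59), *Gm1966* (1.51), *Dock2* (1.44), *Hmha1* (1.41) and *Ptprc* (1.4) made up the rest, of which all but *Gm1966* are known from blood and immune cells.

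*Ptprc*, the pan-leukocyte surface protein CD45, had a lowest value of 2.69 CPM, a median of 6.83 CPM and a highest value of 74.6 CPM. The highest value was that of mouse 5, and mouse 4 came next with 24.1 CPM. *Marco*, a scavenger receptor of certain macrophages, had 39.8 CPM in mouse 5, 2.23 CPM in mouse 4 and at most 0.984 CPM in the other 6 mice. *Siglec1*, another macrophage receptor, had 27.6 CPM in mouse 5 and 0.425 to 4.95 CPM in the others. *Jchain*, which links antibody subunits in plasma cells, followed another order, with 31.2 CPM in mouse 4, 25.1 CPM in mouse 5, 18.7 CPM in mouse 7 and 0 to 4.06 CPM in the other 5.

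*Cfd*, the fat cell protease adipsin, was at 39.5 CPM in mouse 5, 32.1 CPM in mouse 4 and 18.9 CPM in mouse 3, and at 1.14 CPM in mouse 1 and 0.142 CPM in mouse 8. *Car3*, a carbonic anhydrase abundant in fat, had the same 3 mice highest (46.0, 38.2 and 23.3 CPM) and the same 2 lowest (1.52 and 0.283 CPM). Without mice 4 and 5, 14 of these 20 genes stayed among the 20 of highest spread. The 6 that replaced the others were *Reg1*, *Nr1d1*, *Cish*, *Cdhr2*, *Enpp2* and *1810007D17Rik*, which were named after their values were seen. *Nr1d1*, a repressor of the circadian clock, had 7.38 to 16.7 CPM in mice 2, 3, 4 and 8 and 2.02 to 2.94 CPM in mice 1, 5, 6 and 7.

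The genes of lowest spread encode intracellular proteins. The 10 lowest with a mean of at least 5 CPM were *Son*, *Rpl6*, *Birc6*, *Rbm6*, *Chd9*, *Tollip*, *Prdm16*, *Cdc42*, *Sec14l1* and *Ipo4*, with an SD of log2 CPM between 0.03 and 0.04. They were picked for this low spread, so their values are descriptions. *Son*, a splicing cofactor, had 158 CPM in the lowest mouse, 182 CPM at the median and 209 CPM in the highest. *Rpl6*, a ribosomal protein, had 143, 153 and 174 CPM in the same order. On the CPM scale, without TMM, the CV of the 10 lay between 6.42% and 9.87%. The 14 listed genes often used as references had a median SD of 0.16, against 0.22 over all genes with a mean of at least 1 CPM. Their SD stood a median of 0.004 above that of genes of similar level. Among them, *Actb* (SD 0.38) had 190 to 522 CPM with the highest in mouse 5. *B2m* (0.71) had 15.9 to 69.2 CPM, and *Gapdh* (0.20) had 17.9 to 33.0 CPM. *Eef2* (0.06), *Eef1a1* (0.09) and *Rplp0* (0.09), of the translation machinery, were the steadiest of the 14 reference genes listed.

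Lists of genes for the cell types of the tissue differed in spread. By a descriptive rule, the 1165 genes (10%) whose SD stood highest above that of genes of similar level were called high-spread. None of 11 acinar proteases and 1 of 12 acinar transcription factors were high-spread, and 2 of 14 reference genes were. Of the other acinar products, 4 of 10 trypsinogens, 6 of 14 zymogen granule and lectin proteins, and 2 of 13 lipases, amylases and nucleases were high-spread. Of the immune genes with a mean of at least 1 CPM, 8 of 8 MHC class II genes, 10 of 10 B cell and immunoglobulin genes, 5 of 5 T cell and NK genes and 9 of 11 macrophage genes were high-spread. These counts depend on the filter, because 2 of the 8, 8 of the 10, 5 of the 5 and 4 of the 11 had a mean below 1 CPM without mice 4 and 5, and a gene that passes through 1 or 2 high mice has to spread. The other 10 genes of the T cell and NK list had a mean below 1 CPM. The median SD of log2 CPM was 0.20 over the acinar proteases, 1.27 over the MHC class II genes, 1.85 over the B cell genes, 1.68 over the T cell genes and 0.72 over the macrophage genes, against 0.22 over all genes.

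Mice 4 and 5 were the 2 highest for 30 of the 33 immune genes on these 4 lists. For all 33, 1 of the 2 was highest. The same filter bears on these counts, because many of the genes passed it only through mice 4 and 5. The share of all genes highest or lowest in a given mouse was not computed, here or for the lists below. The MHC class II genes, which present antigen to T cells, summed to 355 CPM in mouse 5, 186 CPM in mouse 4 and 18.3 to 61.6 CPM in the other 6 mice. The B cell list summed to 247 CPM in mouse 5, 125 CPM in mouse 4 and 6.37 to 44.4 CPM in the others. *Cd74* is on the B cell list as well as the MHC class II list and enters each sum, so the sums are not independent. The T cell list summed to 66.4 CPM in mouse 5, 9.03 CPM in mouse 4 and 0.708 to 2.34 CPM in the others. The macrophage list was less uneven, with 196 CPM in mouse 5, 182 CPM in mouse 4 and 45.9 to 106 CPM in the others.

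The B cell surface gene *Ms4a1* (11.5 CPM), the complement receptor *Cr2* (17 CPM), the T cell gene *Cd4* (7.55 CPM) and the lymphocyte homing receptor gene *Ccr7* (9.47 CPM) were all highest in mouse 5. In mouse 4 these 4 genes had 0.618 to 4.70 CPM, and in mouse 8 none exceeded 0.142 CPM. *S100a8* and *S100a9*, calcium-binding proteins of neutrophils, were instead highest in mouse 4, at 5.44 and 8.28 CPM, and were at 0 in mouse 5. Without mice 4 and 5 the median SD was 0.62 over the MHC class II genes and 0.79 over the B cell genes. It was 0.63 over the T cell genes, 0.43 over the macrophage genes and 0.20 over all genes. The genes were those that passed the filter with all 8 mice. For genes that passed through mice 4 and 5, a lower SD without them was fixed in advance, so these values are descriptions.

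**Figure D3:**
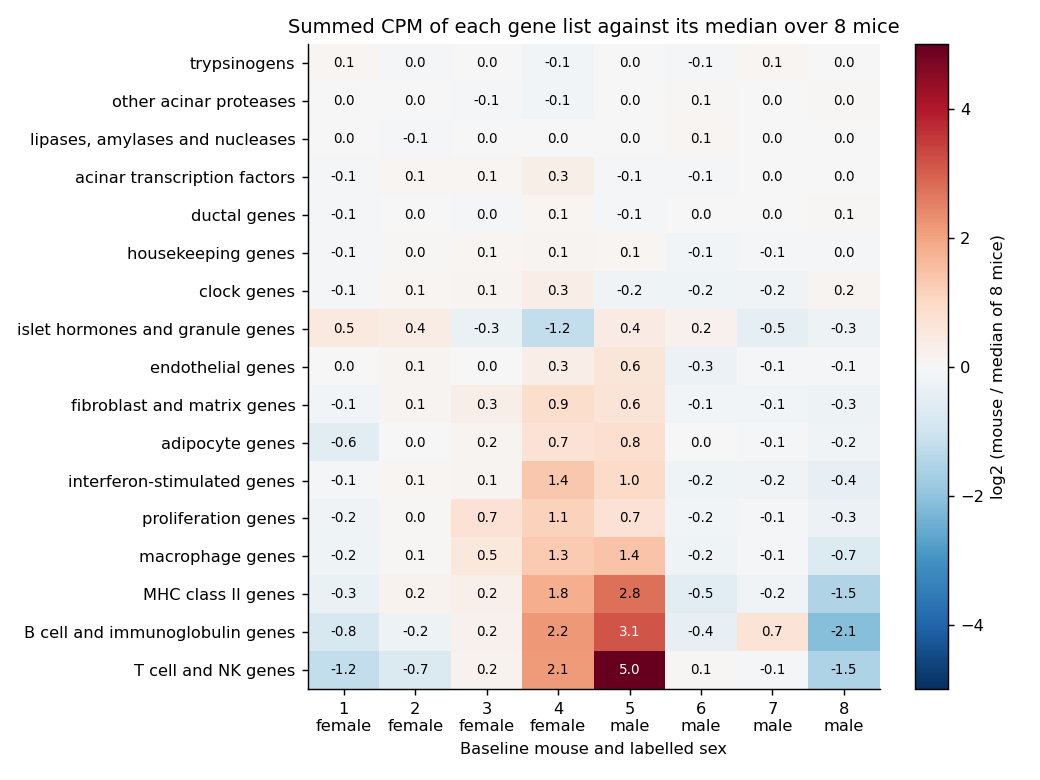
Summed CPM of 17 gene lists in each uninjured mouse, as log2 of the ratio to the list's median over the 8 mice (red above, blue below). The enzyme lists stay near 0 in every mouse, while the immune lists are red in mice 4 and 5, and the islet list is lowest in mouse 4.

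On the CPM scale, connective tissue genes were also higher in mice 4 and 5, and vessel genes were highest in mouse 5. The list sums were not scaled by TMM, in which mouse 4 had the highest factor (1.17). The 14 fibroblast and matrix genes summed to 921 CPM in mouse 4, 778 CPM in mouse 5 and 415 to 615 CPM in the others. The fibrillar collagen *Col3a1* had 310 CPM in mouse 4, 229 CPM in mouse 5 and 123 to 197 CPM in the others. Of the 9 pericyte and smooth muscle genes with a mean of at least 1 CPM, 7 were highest in mouse 5, where the list summed to 79.3 CPM against 29.4 to 51.2 CPM in the others. Endothelial genes summed to 184 CPM in mouse 5 and 97.8 to 151 CPM in the others. The fat cell list summed to 303 CPM in mouse 5, 278 CPM in mouse 4 and 113 to 189 CPM in the others, and *Lpl*, lipoprotein lipase, made up 65.0 to 105 CPM of it.

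Interferon-stimulated genes and proliferation genes were highest in mouse 4. The interferon list summed to 105 CPM in mouse 4, 79.8 CPM in mouse 5 and 30.7 to 44.7 CPM in the others. Of its 13 genes with a mean of at least 1 CPM, 11 were highest in mouse 4. Without mice 4 and 5, 4 of the 13 had a mean below 1 CPM. Among other lists, 7 of 12 acinar transcription factors and 0 of 11 acinar proteases were highest in mouse 4. Of the reference genes, 8 of 14 were highest in mouse 5, as were 2 of the 11 acinar proteases. *Iigp1*, an interferon-inducible GTPase, had 14.5 CPM in mouse 4, 6.31 CPM in mouse 5 and 2.40 to 4.01 CPM in the others. The proliferation list, which holds *Mki67* (33.5 CPM in mouse 4, 6.66 to 21.8 CPM in the others), summed to 105 CPM in mouse 4 and 38.5 to 79.4 CPM in the others. In the paper's mapping statistics, mouse 5 had the highest mapping rate of the 8 mice and mouse 4 the highest share of intron reads. The part of cell content, tissue piece, RNA quality or mapping in these differences was not tested.

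Islet genes were mostly lowest in mouse 4. Of the 16 islet hormone and granule genes with a mean of at least 1 CPM, 14 were high-spread and 11 were lowest in mouse 4. *Ins1* and *Ins2*, the mouse insulin genes, had 33.5 and 45.5 CPM in mouse 4 and 59.9 to 124 and 84.9 to 177 CPM in the others, with the highest in mouse 5. *Gcg*, which encodes glucagon, was at 102 CPM in mouse 1 and 93.1 CPM in mouse 2 and at 22.8 CPM in mouse 4. *Ppy*, pancreatic polypeptide, was at 8.80 CPM in mouse 5 and 2.95 CPM in mouse 3 and at most 1 CPM in the other 6. The list summed to 163 CPM in mouse 4 and 280 to 542 CPM in the others.

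The ductal list had an even sum between mice, 277 to 318 CPM, although 3 of its 12 genes were high-spread and 7 of 12 varied beyond counting error. *Spp1*, osteopontin, had 41.6 to 58.2 CPM, and *Krt19*, a keratin of duct cells, had 7.87 to 18.5 CPM. Of the ER stress and heat shock list, *Hspa5*, the chaperone BiP of the endoplasmic reticulum, had 467 CPM in mouse 2 and 1033 CPM in mouse 7, with a median of 584 CPM. The metallothioneins *Mt1* (110 to 332 CPM) and *Mt2* (21.6 to 100.4 CPM) were lowest in mouse 1 and highest in mouse 8. Of 14 clock genes with a mean of at least 1 CPM, 10 were high-spread.

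Markers of neighbouring organs were mostly absent or low. Of 12 intestinal epithelium genes in the files, *Fabp2*, *Apoa1*, *Apoa4* and *Defa24* had no count in any mouse, and the list summed to 1.42 to 5.32 CPM. Of the hepatocyte list, *Serpina1a* and *Fgb* had no count, *Alb* had 0.524 to 1.98 CPM, and 4 of 10 genes had a mean of at least 1 CPM, with a sum of 13.7 to 33.6 CPM. The 5 skeletal muscle genes summed to 0.501 to 1.23 CPM. A count of 0 allows a share of up to 3.38e-05% to 4.25e-05% of a library (3 counts of the total), and this limit covers counting error only.

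Single mice also stood apart at single genes. By Dixon's gap ratio on log2 CPM, 477 of the 7766 genes with a mean of at least 5 CPM (6.14%) had 1 mouse apart from the other 7, and chance alone gives about 1 in 20. Mouse 5 was that mouse for 188 of them (39.4%), 75 above and 113 below, and the other mice for 11 to 66 each. With total count scaling mouse 4 led instead, with 135 of 423 against 86 for mouse 5. Among these, the 10 with the largest gap in log2 CPM, not the largest gap ratio, included *Marco* and *Ets1* (42.4 CPM in mouse 5, 5.87 to 15 CPM in the others), a lymphocyte transcription factor, *Atp2a3* (21.2 CPM, others 3.34 to 6.43 CPM), the coagulation factor gene *F8* (20.1 CPM, others 2.25 to 4.20 CPM), *Inpp4b* (18.4 CPM) and *Rasa3* (17.6 CPM), all highest in mouse 5. *Amy2a5*, an amylase paralog, was at 1.58 CPM in mouse 5 and 4.42 to 7.38 CPM in the others. In mouse 4, *Mir6969* (58.9 CPM, others 5.60 to 14.4 CPM), which lies inside *Clps* so that their fragments cannot be told apart, and *Gadd45g* (23.7 CPM, others 2.37 to 6.03 CPM), a gene induced by stress and growth arrest, were high and *Chga*, a granule protein of endocrine cells, was low (5.69 CPM, others 13.8 to 30.1 CPM).

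A principal component analysis of the 11645 genes showed the same mice. PC1 (39.8% of the variance) placed mouse 5 at 50.9, mouse 4 at 21.9, mouse 3 at 1.57 and the other 5 between -25.4 and -8.42. PC2 (18.2%) placed the 4 mice labelled female between 13.3 and 19 and the 4 labelled male between -18.9 and -13.7, with mouse 4 at 14.5 among the females. Mice of 1 sex may have shared cages or days of work, which the labels do not give, so that sex and such a batch cannot be told apart.

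The baseline sexes were compared in a fit of the 4 female and 4 male mice. Of 11102 genes tested, 18 (0.162%) were sex DEGs, called where edgeR's quasi-likelihood test gave an adjusted p within 0.05 and the sexes differed by 1.5-fold or more. Of these, 6 were higher in males and 12 in females, 4 lie on the Y chromosome, 1 on the X chromosome and 13 on autosomes. In all 18 the 4 females and 4 males did not overlap in CPM. These genes were called for a sex difference, so this is a description. The share of all 11102 genes without overlap was not computed. At an unadjusted p of 0.05, 631 genes (5.68%) passed. The median absolute log2 difference between the sexes over all genes tested was 0.11.

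The Y-linked genes separated the sexes as the labels say. *Ddx3y*, an RNA helicase (chromosome Y:1260771-1286629), had 36.0, 40.3, 43.0 and 42.1 CPM in males 5 to 8 and 0 counts in the 4 females, which makes it at least 108-fold higher in males when 3 counts per female library are taken as the limit. *Uty* was at least 58.0-fold, *Kdm5d* at least 35.9-fold and *Eif2s3y* at least 31.6-fold higher by the same limit. *Xist* was not tested in this fit, because the filter on low counts removed it with 3 of 8 mice expressing it. Without mouse 4, *Xist* was called with a log2 difference of -11.00 between males and females (adjusted p = 5.88e-17 in edgeR).

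**Figure D4:**
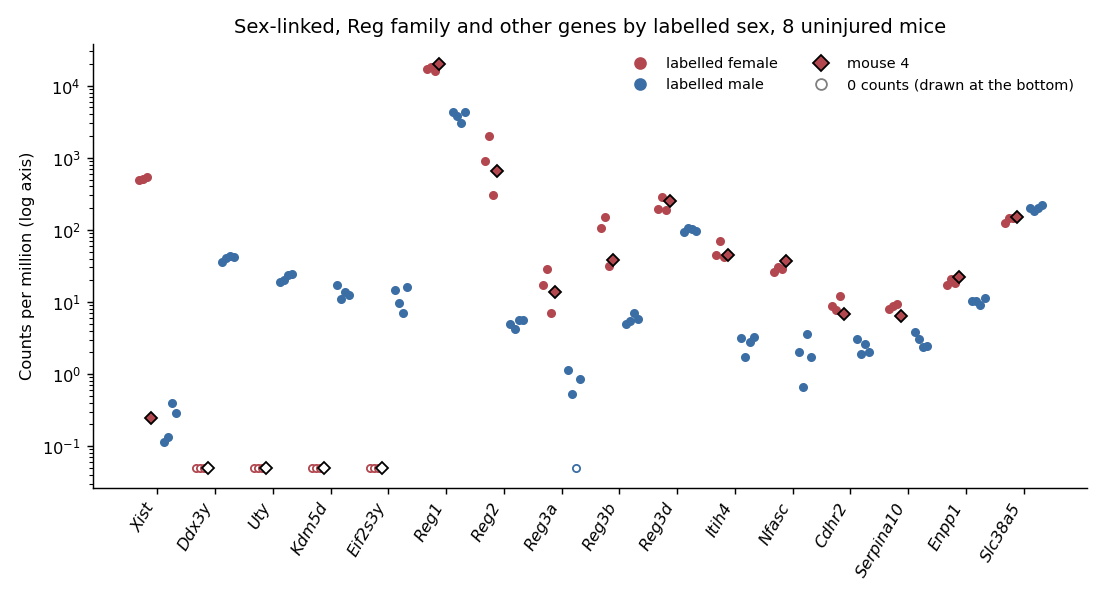
CPM (vertical log axis) of sex-linked genes, Reg family genes and other sex-dependent genes in each uninjured mouse, females to the left and males to the right of each tick, with open symbols for 0 counts and a diamond for mouse 4. Mouse 4 lies with the males for *Xist* (0.247 CPM) and with the females for every other gene shown. Most of the genes shown were called with mouse 4 counted as female, so its place among the females is a description. The X-linked *Kdm6a*, *Kdm5c*, *Eif2s3x* and *Ddx3x*, for which mouse 4 lay within the males after TMM scaling, are not shown.

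The autosomal genes with the largest sex differences included members of the *Reg* cluster. Reg proteins are small secreted lectin-like proteins of acinar cells, named for their appearance in regenerating islets. *Reg3b*, *Reg3d*, *Reg3a*, *Reg2*, *Reg1* and *Reg3g* lie in this order on chromosome 6, between positions 78370657 and 78468872 of GRCm38. *Reg1* (chromosome 6:78422711-78428667) had 17033, 18442, 16251 and 19992 CPM in females 1 to 4 and 4347, 3793, 3052 and 4304 CPM in males 5 to 8. Every female exceeded every male, and the female mean was 4.63 times the male mean (log2 difference male minus female -2.10, SE 0.12, adjusted p = 2.31e-09 in edgeR).

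*Reg2* (chromosome 6:78395623-78408106) differed most. It had 897, 2004, 301 and 649 CPM in females 1 to 4 and 4.96, 4.14, 5.64 and 5.67 CPM in males 5 to 8. The female mean of 963 CPM was 189 times the male mean of 5.10 CPM. The 4 females differed widely among themselves and the 4 males little. The log2 difference was -7.47 (SE 0.82, adjusted p = 0.0475 in edgeR), and the adjusted p was above 0.05 under 10 of 15 alternatives, ranging from 5.35e-35 (DESeq2) to 0.304. These include leaving out mouse 1 (0.118), mouse 4 (0.0815), mouse 5 (0.0936), mouse 6 (0.291), mouse 7 (0.304) or mouse 8 (0.183).

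*Reg3d* had 196, 285, 191 and 255 CPM in the females and 93.8, 106, 104 and 94.9 CPM in the males (log2 difference -1.10, SE 0.12, adjusted p = 1.85e-04 in edgeR). In 1 fit of all 23 mice it was not called (adjusted p = 0.725 in edgeR). *Reg3a* (7.01 to 28.8 CPM in females, 0 to 1.13 CPM in males) and *Reg3b* (31.9 to 152 CPM in females, 4.96 to 6.95 CPM in males) did not overlap between the sexes either, but did not pass (adjusted p = 0.185 and 0.285 in edgeR). *Reg3g* had 3.09 to 7.89 CPM in females and 0.534 to 2.12 CPM in males (adjusted p = 0.201 in edgeR, and 0.0282 without mouse 4). All 6 genes of the cluster were higher in each female than in any male, but only 3 of the 6 passed the test. The share of all tested genes in which the sexes did not overlap was not computed. For a single gene, full separation of 4 against 4 mice arises by chance with a probability of 0.0286.

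The sequences before the starts of *Reg1* and *Reg2* are shown because these neighbours had the largest sex differences in CPM within the cluster. By log2 difference, *Reg3a* (-4.57) and *Reg3b* (-3.74) differed more than *Reg1* (-2.10). *Reg1* is chr6:78425733-78425982 and *Reg2* is chr6:78404905-78405154, both on the plus strand of GRCm38.p6 in RefSeq, with TATAAA in capitals. In both the TATAAA letters begin 30 bases before the start.
Reg1: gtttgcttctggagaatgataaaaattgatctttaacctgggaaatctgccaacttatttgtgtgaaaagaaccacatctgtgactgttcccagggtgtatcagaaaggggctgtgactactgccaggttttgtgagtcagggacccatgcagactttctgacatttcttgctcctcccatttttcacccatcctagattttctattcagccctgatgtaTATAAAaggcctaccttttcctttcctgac
Reg2: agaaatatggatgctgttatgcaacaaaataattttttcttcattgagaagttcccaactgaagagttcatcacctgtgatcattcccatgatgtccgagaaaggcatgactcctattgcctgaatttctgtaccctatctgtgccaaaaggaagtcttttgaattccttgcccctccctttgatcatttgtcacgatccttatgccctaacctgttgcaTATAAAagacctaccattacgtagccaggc

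*Itih4*, of the inter-alpha-trypsin inhibitor heavy chain family (chromosome 14:30886476-30902353), had 45.3, 71.0, 41.6 and 45.1 CPM in females and 3.16, 1.73, 2.75 and 3.26 CPM in males. The female mean was 18.6 times the male mean (log2 difference -4.11, SE 0.26, adjusted p = 9.52e-05 in edgeR). *Nfasc*, the cell adhesion protein neurofascin (chromosome 1:132564690-132741797), had 26.0, 30.9, 28.5 and 36.8 CPM in females and 2.03, 0.667, 3.54 and 1.70 CPM in males, a female mean 15.4 times the male mean (log2 difference -3.82, SE 0.24, adjusted p = 1.56e-06 in edgeR). For both, mouse 4 lay with the other females. In 1 fit of all 23 mice *Itih4*, *Nfasc* and *Serpina10* missed the threshold (adjusted p = 0.106, 0.0507 and 0.108 in edgeR).

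The other 7 genes higher in females stood at low CPM. *Cdhr2*, a protocadherin of the brush border, had 6.68 to 12.1 CPM in females and 1.87 to 3.04 CPM in males (log2 difference -1.78, adjusted p = 5.93e-04 in edgeR). *Serpina10*, an inhibitor of coagulation proteases, had 6.43 to 9.23 and 2.36 to 3.83 CPM, and *Enpp1*, an ectonucleotide pyrophosphatase, had 17.1 to 22.4 and 9.05 to 11.5 CPM. *Naprt*, *Shank1*, *Mgp* and *Hkdc1* were called with log2 differences between -1.75 and -0.61. Each of these 4 missed the threshold under 5 to 9 of the alternatives tried, with adjusted p up to 0.208, 0.195, 0.215 and 0.255 in edgeR. *Naprt* missed it without mouse 2, 3, 6 or 7, *Shank1* without mouse 2, 3, 4, 6, 7 or 8, *Mgp* without mouse 1, 3, 4, 6, 7 or 8, and *Hkdc1* without any mouse but 4.

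Apart from the Y-linked genes, 2 were higher in males. *Slc38a5*, an X-linked amino acid transporter (chromosome X:8271133-8280179), had 123, 146, 147 and 150 CPM in females and 199, 184, 204 and 219 CPM in males (log2 difference 0.62, SE 0.09, adjusted p = 0.00165 in edgeR). *Cytip*, a binding partner of cytohesin, had 13.4 to 16.3 CPM in females and 18.1 to 25.6 CPM in males (log2 difference 0.67, adjusted p = 0.0135 in edgeR). Without mouse 8 the difference of *Slc38a5* was 0.57, under the 1.5-fold limit, and *Cytip* had adjusted p = 0.0691 in edgeR. *Cytip* also missed the threshold without mouse 2 (0.0647), without mouse 3 (0.0893), with total count scaling (0.196) and in 1 fit of all 23 mice (0.607). *Slc38a5* fell under the 1.5-fold limit with total count scaling (log2 difference 0.51) and had adjusted p = 0.0743 in the edgeR fit of all 23 mice.

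The number of sex DEGs changed most without mouse 5, and lay between 13 and 23 without any other single mouse. Without mouse 4 there were 23 sex DEGs, with 15 of the 18 among them. *Kdm6a*, *Kdm5c* and *Eif2s3x* then had adjusted p = 0.0282, 0.0282 and 0.0107 in edgeR, against 0.412, 0.196 and 0.288 with mouse 4. Their log2 differences without mouse 4 were -0.54, -0.53 and -0.68, and only that of *Eif2s3x* reached the 1.5-fold limit. The log2 differences without mouse 4 were -2.10 for *Reg1* (adjusted p = 8.87e-09 in edgeR), -1.11 for *Reg3d* (0.00121), -4.21 for *Itih4* (2.45e-06), -3.78 for *Nfasc* (1.05e-05), -1.93 for *Cdhr2* (1.69e-04), -1.51 for *Serpina10* (0.00104), -0.81 for *Enpp1* (0.0107), -1.90 for *Hkdc1* (0.0294), -0.96 for *Naprt* (0.0291), 0.60 for *Slc38a5* (0.0105) and 0.67 for *Cytip* (0.0363). The 4 Y-linked genes had adjusted p from 9.01e-11 to 2.60e-04 in edgeR without it. *Shank1*, *Mgp* and *Reg2* were the 3 not called without it. Without mouse 5 there were 38, and without mice 4 and 5 there were 40, with 17 of the 18 among them. In 1 fit of all 23 mice *Reg2* (adjusted p = 0.137 in edgeR), *Hkdc1* (0.169), *Naprt* (0.208), *Shank1* (0.170) and *Mgp* (0.0549) were not called either. *Reg1*, *Cdhr2*, *Enpp1* and the 4 Y-linked genes were called in every alternative in which they were tested.

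The sexes of other mice gave a view of the same genes after injury. At day 7, 7 of 12202 genes (0.0574%) were sex DEGs and at day 14, 27 of 11956 (0.226%), in fits of those mice alone. *Reg1* at day 7 had 13552, 12473, 12660 and 20270 CPM in females and 14330, 23857, 10567 and 26278 CPM in males, so that the sexes overlapped (log2 difference 0.40, SE 0.33, adjusted p = 0.978 in edgeR). At day 14 it had 10847 to 20744 CPM in the 3 females and 5921 to 9002 CPM in the 4 males, which did not overlap (log2 difference -0.96, adjusted p = 0.439 in edgeR). The sex difference of *Reg1* changed between baseline and day 7 by 2.51 on the log2 scale (SE 0.39, adjusted p = 0.0369 for the interaction in edgeR). It was the single gene of 12933 (0.00773%) with such a call, and 705 passed an unadjusted p of 0.05. The call was lost in 11 of 16 fits that left out 1 baseline or day 7 mouse, namely mouse 1, 2, 3, 4, 5, 6, 7, 9, 10, 11 or 14, while the change stayed between 2.23 and 2.73 on the log2 scale (adjusted p from 6.47e-04 to 0.189, and 0.117 without mouse 4, in edgeR). Between baseline and day 14 the interaction was called for 0 of 12933 genes (0%) by edgeR, with 473 at an unadjusted p of 0.05.

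*Reg2* in males was at 222, 5936, 166 and 7401 CPM at day 7 and at 11.6 to 41.1 CPM at day 14, compared with 4.14 to 5.67 CPM at baseline. In females it was at 139 to 1112 CPM at day 7 and 39.2 to 5284 CPM at day 14. *Itih4* and *Nfasc* were highest at day 7 in the same 2 males, mice 14 and 16, at 76.8 and 82.7 CPM and at 83.1 and 62.1 CPM. At day 14 *Itih4* had 23.1 to 40.7 CPM in females and 7.38 to 11.2 CPM in males and was again a sex DEG (log2 difference -1.63, SE 0.21, adjusted p = 0.0195 in edgeR). The interactions for *Reg2*, *Itih4* and *Nfasc* at day 7 did not pass (adjusted p = 0.124, 0.0923 and 0.0923 in edgeR).

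**Figure D5:**
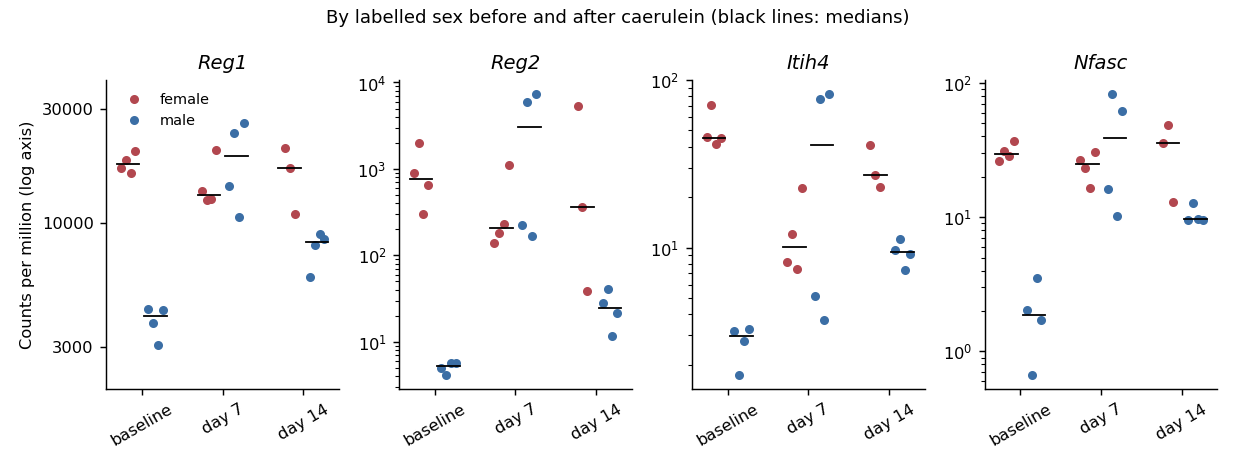
CPM (vertical log axes) of *Reg1*, *Reg2*, *Itih4* and *Nfasc* in each mouse at baseline, day 7 and day 14, coloured by labelled sex, with medians as black lines. The sexes are fully apart at baseline for all 4 genes and overlap at day 7, where 2 of the 4 males are the highest of the 8 mice.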

How the data were processed

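Counts of uniquely mapped fragments per gene symbol were deposited as 1 file per mouse. Per the labels and the study's methods, the authors extracted RNA with TRIzol, depleted ribosomal RNA, made stranded libraries, sequenced read pairs, trimmed them with Trim Galore and cutadapt, aligned them to mm10 with STAR 2.5.2a and counted with featureCounts, so the deposited counts are raw. Each mouse is 1 library, and day 3 mice were not analysed here.

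From the counts, CPM, spread (edgeR 4.0.16 in R 4.3.3, limma 3.58.1) and lists were computed over 8 baseline mice in Python 3.11.15 (numpy 2.4.6, pandas 2.3.3, scipy 1.17.1, matplotlib 3.10.9). Spread beyond counting error was tested with a chi-square index of dispersion on 7 degrees of freedom, with Benjamini-Hochberg adjustment. High-spread genes were the 10% with the largest SD above the median of 500 genes of similar level. The sexes were compared with edgeR's quasi-likelihood test after its filter on low counts, and called at an adjusted p within 0.05 and a difference of 1.5-fold or more. Both steps were tested on simulated data.

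Genes named were the 20 most abundant, 10 more per kilobase, the 20 of highest and 10 of lowest spread at 5 CPM or more, all sex DEGs, the 10 with 1 mouse farthest apart, and members of each list by level or spread. A few genes that meet these rules are not reported here. Members and lists were chosen with earlier results of these data known. Depth was 7059890 to 8868360 counts, and a floor of 3 counts covers counting error only. Alternatives were other scalings, filters and prior counts, DESeq2 1.42.0, 1 fit of all 23 mice, each mouse left out and, chosen after seeing the data, mice 4 and 5 left out together, TMM-scaled X-linked genes and the *Reg1* interaction without each mouse.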

Additional observations from a re-analysis of the deposited data

Results flagged for a closer look

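In each group, the gap between the most extreme mouse and its neighbour was divided by the group's range, and a large ratio marks a mouse apart from the others. Chance marks about 1 in 20 groups. Of 30 lists, the 26 with a summed CPM of at least 5 were examined, on the CPM scale and not as log2. Among these, mouse 5 stood above the other 7 for T cell and NK genes (ratio 0.873) and for pericyte and smooth muscle genes (0.563). The granulocyte and mast cell list fell under this limit (mean 4.12 CPM), and mouse 4 stood above the others there (0.869).

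Among single genes over 8 mice, mouse 5 stood above the others for *Atp2a3* (0.758), *F8* (0.690), *Ets1* (0.634), *Inpp4b* (0.620), *Marco* (0.572) and *Rasa3* (0.562), and below them for *Amy2a5* (0.702). Mouse 4 stood above the others for *Gadd45g* (0.572) and *Mir6969* (0.562) and below them for *Chga* (0.581). Mouse 6 stood above the others for *Rbm6* (0.587) and *Clps* (0.585). Apart from *Rbm6* and *Clps*, these genes were chosen for such a gap, so their ratios are descriptions.

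Within the 4 mice of a sex, mouse 4 stood below the other females for *Xist* (0.993) and *Serpina10* (0.866), and mouse 5 stood below the other males for *Ddx3y* (0.929). The sex difference of *Reg1* changed by 2.51 on the log2 scale between baseline and day 7, by the interaction term in edgeR (adjusted p = 0.0369), a call that was lost in 11 of 16 fits without 1 mouse. The causes were not tested.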

How the results depend on the processing

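The 20 most abundant symbols took 66.0% when ranked per kilobase and 69.2% to 69.9% with each mouse left out. Genes varying beyond counting error numbered 1831 without mice 4 and 5, and 2702 (without mouse 5) to 4053 with each mouse left out. The median SD of log2 CPM was 0.24 with total count scaling, 0.0794 after a variance stabilizing transformation, 0.18 at a mean of at least 5 CPM, 0.27 at a mean of at least 0.1 CPM, and 0.21 to 0.22 with each mouse left out. Genes with 1 mouse apart numbered 785 at a mean of at least 1 CPM and 208 at 20 CPM, as more or fewer genes were tested. Of the 20 genes of highest spread, 5 were among the 20 at a mean of at least 20 CPM, since most lie below that level. Sex DEGs numbered 11 among genes with 10 counts or more in every mouse, a filter that removes the Y-linked genes, 28 with DESeq2, 9 in 1 fit of all 23 mice, 40 without mice 4 and 5, and 13 to 38 (without mouse 5) with each mouse left out. The causes of the last 4 changes were not tested. The change of the *Reg1* sex difference between baseline and day 7 was 2.23 to 2.73 on the log2 scale with each baseline or day 7 mouse left out, and its call was lost in 11 of 16 such fits. No sex DEG changed direction under any alternative in which it was tested. Leaving out a mouse could hardly reverse one, because the sexes did not overlap in any of the 18. No paired analysis was possible because each mouse has its own number and the groups share none. Depth limits the spread that can be seen between 1 and 10 CPM, where counting alone gives a median CV of 18%.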

Other observations

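Of 7 erythroid genes with a mean of at least 1 CPM, 7 were highest in mouse 5 (several globin symbols share identical counts). The share of all genes highest in mouse 5 was not computed. The erythroid list summed to 38.7 CPM in mouse 8 and 75.1 CPM in mouse 5. *Cish*, a feedback inhibitor of cytokine signalling, had 3.07 CPM in mouse 6 and 26.9 CPM in mouse 8, and *1810007D17Rik* was also highest in mouse 8, at 30.03 CPM against 5.18 CPM in mouse 1. *Enpp2*, which encodes autotaxin, ran from 2.83 CPM in mouse 8 to 40.8 CPM in mouse 4. These 3 genes were named after their values were seen.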
